A study of Mus musculus with 16 samples.

Results

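The genes described here are 10 members of the insulin receptor pathway and of the genes that FoxO factors switch on, measured by RNA-seq in the hypothalamus of C57BL/6J mice with diet-induced obesity. They were taken from a list of names, with no threshold on their values: the receptors Insr and Igf1r, the adaptor Irs2, the phosphoinositide 3-kinase subunit Pik3r1, the factors Foxo1 and Foxo3, and the FoxO target genes Sesn1, Bcl6, Fbxo32 and Ccng2. The names were chosen with earlier results of these data known. Counts of members set beside the share of all genes are therefore a description and no test of the group. All 10 are among the 24047 genes of the deposited count table, and all 10 are among the 14775 that passed the filter on low counts. In outline, Bcl6, Sesn1 and Pik3r1 were higher and Fbxo32 was lower in both groups labelled as food-rationed than in vehicle-treated mice, and Igf1r was higher in PF+CS and in CS than in vehicle-treated mice. The results for Igf1r in CS and for Fbxo32 in PF+CS each held in 2 of 8 fits that left out 1 library. That for Bcl6 in PF held in 3 of 8, and the others named held in 6 to 8. Leaving out 1 vehicle library, Veh 2, left 0 members called in PF. Igf1r also lay higher in PF, by log2 0.13 (adjusted p = 0.127, edgeR), and CS was not separated from PF (0.07, adjusted p = 0.472).

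Insulin and insulin-like growth factor 1 (IGF-1) bind receptor tyrosine kinases, which phosphorylate insulin receptor substrates such as IRS2. These recruit phosphoinositide 3-kinase (PI3K), whose lipid product activates the kinase AKT, and AKT phosphorylates FoxO factors, which then leave the nucleus. When insulin is low, FoxO factors stay in the nucleus and transcribe genes of fasting, stress resistance, autophagy and growth arrest, and in liver they also raise the message of IRS2, upstream of themselves. In the hypothalamus, insulin restrains feeding, and FoxO1 is known there for raising Agrp and holding down Pomc.

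The libraries fall into 4 groups of 4, all from wild-type mice made obese on a high-fat diet and given daily DMSO injections for 1 week before a treatment of 4 days. PF+CS combined celastrol, injected into the peritoneum at a daily 100 µg per kg, with a daily ration of the same diet weighing 0.5 g (0.34 g in the dark phase, 0.16 g in the light phase). In CS the dose was the same and food was free, in PF the ration was the same and the injection was DMSO, and in Veh the injection was DMSO and food was free. The ration was below the average of 0.8 g that celastrol-treated mice ate. Celastrol is a triterpenoid from a medicinal vine, known for reducing feeding and weight in obesity. Tissue was taken 6 h after the last injection. The labels state neither the age nor the sex of the mice.

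The deposited comparison tables and the count columns disagree on which libraries are PF and which are CS. The mean normalized count in each of these tables, 5 in all, is matched by a sum of 8 count columns with a fitted weight for each column (largest relative error 4.88e-15). The names of 3 of these tables do not match those columns. All of them match once the names PF and CS are exchanged. The names of the count columns, which the sample titles share, are used below. If the tables are right instead, every statement on PF against Veh applies to CS against Veh and the other way round, PF+CS against PF trades places with PF+CS against CS, and CS against PF changes sign. PF+CS against Veh, the interaction and the test across all 4 groups do not depend on it.

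Library totals were between 6008564 counts (PF 1) and 12880459 counts (Veh 3). The members had 97 (Ccng2 in PF 1) to 2897 counts (Pik3r1 in Veh 3) in a library. All 12 hypothalamic markers were detected in every group, with Pmch at 274 to 450.0 CPM (counts scaled to library size) and Pomc at 15.97 to 40.6 CPM. Markers of meningeal fibroblasts were low in 5 libraries, Veh 3, PF 1, PF 2, CS 2 and PF+CS 4 (mean log2 CPM 1.83 to 2.30, against 3.65 to 4.40 in the other 11), and where leaving them out changed a call, the value without them is given. Of PF, only PF 3 and PF 4 then remain, and PF 4 had the highest level of its group for 5 members. Samples were labelled as separate libraries with no mention of cages or litters, so p-values measure the spread between these libraries.

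Levels per transcript length, in the deposited FPKM (fragments scaled to transcript length and library size), put Pik3r1 first with 10.9 ± 0.613 FPKM (SD over all 16 libraries). Sesn1 came next at 6.96 ± 1.08 FPKM, then Irs2 at 5.81 ± 1.22, Insr at 5.40 ± 0.277 and Igf1r at 4.92 ± 0.422 FPKM. Foxo3 (4.17 ± 0.674 FPKM) and Bcl6 (4.16 ± 1.26 FPKM) lay together, above Foxo1 at 3.07 ± 0.419 and Ccng2 at 2.48 ± 0.181 FPKM. Fbxo32 was the lowest of the members, with 1.16 ± 0.168 FPKM. From Sesn1 down to Ccng2 the mean ± SD of each member overlapped that of the next, whereas Pik3r1 and Fbxo32 stood clear of their neighbours.

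**Figure D1:**
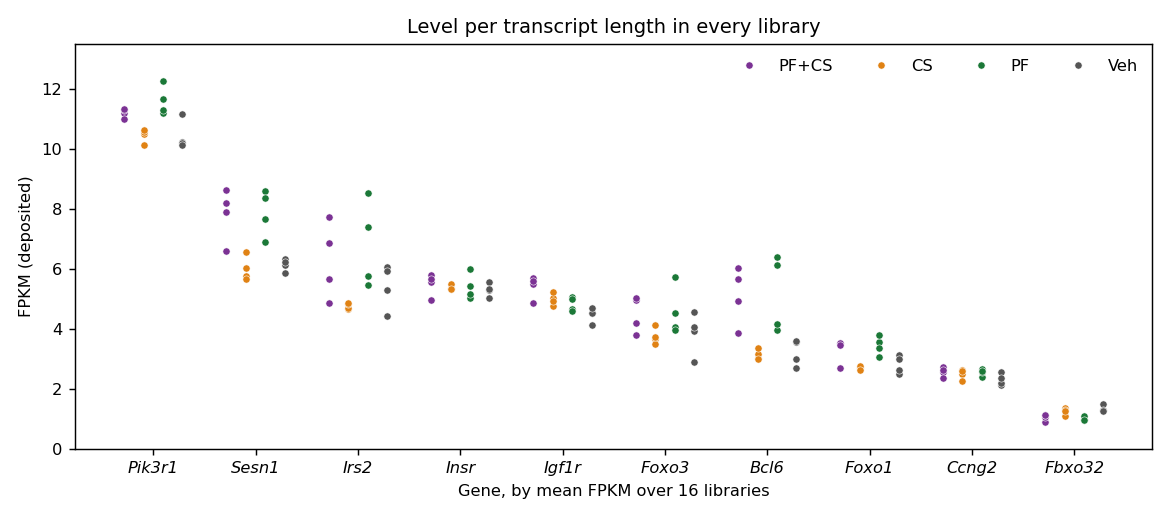
Deposited FPKM of the 10 members in every library, ordered by their mean over 16 libraries; each point is a library and colours mark the groups PF+CS, CS, PF and Veh. Pik3r1 lies highest at a mean of 10.9 FPKM and Fbxo32 lowest at 1.16 FPKM, and the points of Bcl6 separate by group, with PF+CS and PF above CS and Veh.

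A single test across the 4 groups, which does not depend on the names PF and CS, asked which members differed at all. A gene was called at a Benjamini-Hochberg adjusted p of at most 0.05 over all 14775 genes (edgeR quasi-likelihood test). It called 6 of the 10 members, against 9.76% of all genes tested. Those 6 were Igf1r (adjusted p = 0.00034), Sesn1 (0.000707), Pik3r1 (0.00513), Fbxo32 (0.00835), Bcl6 (0.0125) and Foxo1 (0.0228). Foxo1 alone of these fell out when 1 library was left out, namely Veh 4, CS 1, CS 4, PF+CS 1 or PF+CS 2 (adjusted p 0.0509 to 0.0543). Irs2 (adjusted p = 0.109), Foxo3 (0.12), Ccng2 (0.23) and Insr (0.284) were not called, and Irs2 was called without PF+CS 4 (0.0303).

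**Figure D2:**
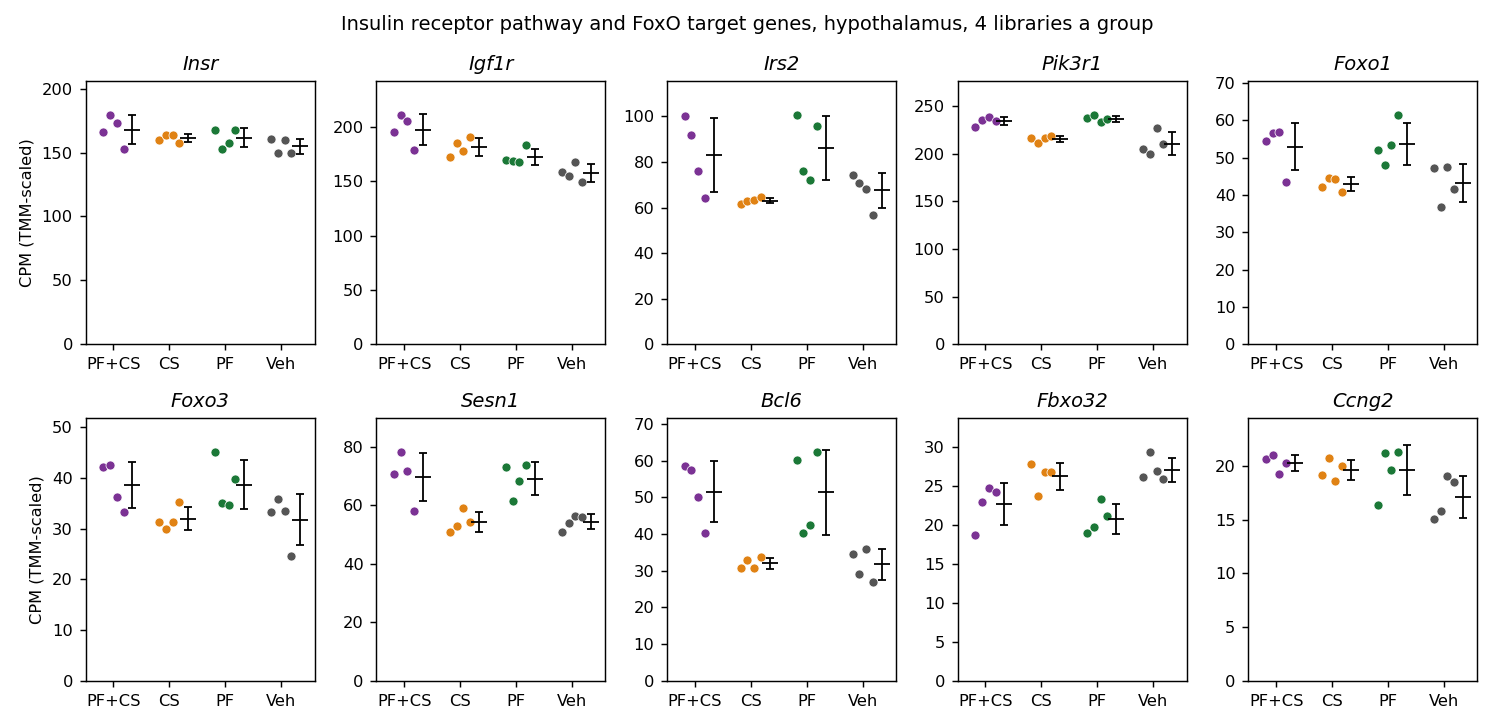
CPM, scaled by the trimmed mean of M-values (TMM), of each member in the 4 libraries of PF+CS, CS, PF and Veh; points are libraries and the bars to their right are the mean ± SD (n = 4). Bcl6 lies at 40.3 CPM or above in PF+CS and PF and at 36.0 CPM or below in CS and Veh, and Fbxo32 lies lower in PF+CS and PF than in Veh. Igf1r lies higher in PF+CS, CS and PF than in Veh, with the lowest PF library (168.17 CPM) close to the highest Veh library (168.14 CPM).

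Igf1r encodes the receptor for IGF-1, a tyrosine kinase closely related to the insulin receptor (chr7:67952827-68233668, plus strand, protein-coding, GRCm38). It was measured at 196, 211, 205 and 179 CPM in PF+CS, at 172, 185, 177 and 191 CPM in CS, at 169.9, 169, 168 and 184 CPM in PF, and at 159, 155, 168 and 149 CPM in Veh. Every PF+CS and every CS library lay above every Veh library. Igf1r rose by log2 0.33 in PF+CS against Veh (SE 0.05, adjusted p = 7.94e-05, edgeR; 198 ± 14.1 CPM in PF+CS and 158 ± 7.95 CPM in Veh, SD, n = 4 each), a 25.3% higher level. This call was made in each of the 8 fits that left out 1 library and in all 11 other settings tried. In CS against Veh, Igf1r rose by log2 0.20 (SE 0.05, adjusted p = 0.0342), with 181 ± 8.20 CPM in CS. That call ended without Veh 1 (adjusted p = 0.086), Veh 2 (0.139), Veh 4 (0.0657), CS 2 (0.0779), CS 3 (0.0699) or CS 4 (0.199), and it was made in 7 of the 11 other settings. The log2 change in PF against Veh was 0.13 (SE 0.05, adjusted p = 0.127), with the lowest PF library at 168.17 CPM and the highest Veh library at 168.14 CPM, and was called without the 5 libraries low in meningeal markers (0.19, adjusted p = 0.0357). PF was then left with PF 3 and PF 4, at 168 and 184 CPM. PF+CS was not called above CS (log2 0.12, SE 0.05, adjusted p = 0.165, edgeR; without those 5 libraries 0.18, adjusted p = 0.019) or above PF (0.19, adjusted p = 0.152), and PF+CS 4 lay inside the CS range and below PF 4.

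The longest annotated transcript of Igf1r has 11409 bases, and the genes called higher in CS against Veh had a median length of 7077 bases, against 1933 for those called lower and 3446.5 for all tested. With an offset for transcript length and GC content, chosen after the data had been seen, Igf1r stood at log2 0.17 in CS against Veh (adjusted p = 0.049, edgeR) and at 0.26 in PF+CS against Veh (adjusted p = 0.000172). All 10 endothelial markers were measured, and their summed level was 245 to 301 CPM in PF+CS, 233 to 284 CPM in CS, 180.0 to 229 CPM in PF and 199 to 236 CPM in Veh. Whether a change in these cells has a part in the level of Igf1r was not tested. In bulk tissue, more cells of a type and more RNA per cell cannot be told apart.

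Insr encodes the insulin receptor (chr8:3122061-3279617, minus strand, protein-coding). Its libraries ranged over 153 to 179 CPM in PF+CS, 157 to 164 CPM in CS, 153 to 168 CPM in PF and 149 to 161 CPM in Veh. The groups overlapped in every comparison and no change was called. The log2 difference was 0.12 in PF+CS against Veh (95% interval 0.03 to 0.21, adjusted p = 0.0887, edgeR) and was called without PF+CS 4 (0.16, adjusted p = 0.0123). It was 0.06 in CS against Veh (interval −0.03 to 0.15) and 0.06 in PF against Veh (interval −0.03 to 0.15).

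Irs2 encodes a docking protein through which both receptors reach PI3K (chr8:10984681-11008458, minus strand, protein-coding). It stood at 100.0, 92.0, 76.1 and 64.0 CPM in PF+CS, at 61.6, 62.9, 63.1 and 64.4 CPM in CS, at 100.5, 76.0, 72.0 and 95.8 CPM in PF, and at 74.1, 70.8, 68.3 and 56.8 CPM in Veh. The CS libraries lay close together, all below the lowest PF library, while PF and PF+CS spread widely. The log2 differences were 0.30 in PF+CS against Veh (SE 0.14, adjusted p = 0.203, edgeR), 0.35 in PF against Veh (SE 0.14, adjusted p = 0.204) and −0.45 in CS against PF (SE 0.14, adjusted p = 0.111), none of them called. In the authors' deposited tables, Irs2 was called in the table made from the PF and Veh columns (log2 0.27, adjusted p = 0.023) and in that made from the CS and PF columns (−0.35, adjusted p = 9.58e-05). An exon of Irs2 overlaps 9530052E02Rik on the opposite strand, and since the sources used here do not say that counting used strand, reads of the pair cannot be told apart.

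Pik3r1 encodes the regulatory p85 alpha subunit of PI3K, which binds phosphorylated adaptors (chr13:101680563-101768217, minus strand, protein-coding). Its libraries stood at 228, 236, 239 and 235 CPM in PF+CS, at 217, 212, 216 and 219 CPM in CS, at 237, 240.3, 233 and 236 CPM in PF, and at 205, 200.2, 227 and 209.7 CPM in Veh. All PF and PF+CS libraries lay above all CS and Veh libraries, the nearest being Veh 3. Pik3r1 rose by log2 0.15 in PF+CS against Veh (SE 0.04, adjusted p = 0.00931, edgeR; 234 ± 4.66 CPM in PF+CS and 211 ± 11.8 CPM in Veh, n = 4 each). It rose by log2 0.17 in PF against Veh (SE 0.04, adjusted p = 0.013; without Veh 2, 0.0811), and these were the smallest of the called changes against Veh, at 11.1% and 12.2%. Both calls ended when FPKM values were tested in place of counts, and that in PF against Veh also with the 2 groups alone (adjusted p = 0.0533), so that they were made in 8 and 7 of the 11 other settings. In CS against PF it was lower, at log2 −0.13 (SE 0.04, adjusted p = 0.0445), a call that ended on leaving out any 1 of the 8 libraries (adjusted p 0.0636 to 0.128), and without the 5 libraries low in meningeal markers (−0.11, adjusted p = 0.241). It was made in 4 of the 11 other settings.

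Foxo1 and Foxo3 encode the FoxO factors themselves, which share their DNA-binding domain. Foxo1 (chr3:52268336-52353221, plus strand, protein-coding) was measured at 54.6, 56.7, 57.0 and 43.6 CPM in PF+CS, at 42.1, 44.5, 44.4 and 40.9 CPM in CS, at 52.0, 47.9, 53.5 and 61.4 CPM in PF, and at 47.2, 36.7, 47.5 and 41.7 CPM in Veh. Every PF library lay above every CS and every Veh library, and of the PF+CS libraries replicate 4 lay among those of Veh. Foxo1 rose by log2 0.30 in PF+CS against Veh (SE 0.09, adjusted p = 0.0431, edgeR; 53.0 ± 6.37 CPM in PF+CS and 43.3 ± 5.15 CPM in Veh, n = 4 each). The call ended without Veh 2 (adjusted p = 0.129), Veh 4 (0.103), PF+CS 1 (0.102), PF+CS 2 (0.123) or PF+CS 3 (0.131), and it was made in 4 of the 11 other settings. The log2 difference of 0.31 in PF against Veh (SE 0.09, adjusted p = 0.0622) and that of −0.33 in CS against PF (SE 0.09, adjusted p = 0.0508) were not called. Both passed in the authors' deposited tables (0.25, adjusted p = 0.0471, and −0.26, adjusted p = 0.00728). Without the 5 libraries low in meningeal markers the difference in PF against Veh was 0.47 and was called (adjusted p = 0.000871, edgeR), as were those of −0.45 in CS against PF (adjusted p = 0.00226) and 0.40 in PF+CS against CS (adjusted p = 0.000584). PF was then left with PF 3 and PF 4, at 53.5 and 61.4 CPM. An exon of Foxo1 overlaps the antisense gene Gm20402.

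Foxo3 (chr10:42181841-42276755, minus strand, protein-coding) ranged over 33.3 to 42.5 CPM in PF+CS, 29.8 to 35.2 CPM in CS, 34.8 to 45.1 CPM in PF and 24.6 to 35.9 CPM in Veh. The groups overlapped in every comparison and none was called. Its log2 differences were 0.28 in PF+CS against Veh (95% interval 0.05 to 0.51, adjusted p = 0.11, edgeR), 0.27 in PF against Veh (interval 0.04 to 0.51, adjusted p = 0.183) and −0.26 in CS against PF (interval −0.49 to −0.03, adjusted p = 0.212).

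Sesn1 encodes sestrin 1, a stress-induced inhibitor of mTORC1 signalling and a known FoxO and p53 target (chr10:41809935-41908424, plus strand, protein-coding). It was measured at 70.6, 78.2, 71.6 and 58.2 CPM in PF+CS, at 51.0, 52.8, 59.1 and 54.3 CPM in CS, at 72.9, 61.6, 68.2 and 73.9 CPM in PF, and at 51.0, 54.1, 56.4 and 56.1 CPM in Veh. Both rationed groups lay wholly above Veh, and PF lay wholly above CS. Sesn1 rose by log2 0.36 in PF+CS against Veh (SE 0.07, adjusted p = 0.00243, edgeR; 69.7 ± 8.33 CPM in PF+CS and 54.4 ± 2.48 CPM in Veh, n = 4 each) and by 0.34 in PF against Veh (SE 0.07, adjusted p = 0.00959). It rose by 0.36 in PF+CS against CS (SE 0.07, adjusted p = 0.00729) and was lower in CS against PF, at −0.34 (SE 0.07, adjusted p = 0.00857). Calls ended in PF against Veh without Veh 2 (adjusted p = 0.0586) or PF 4 (0.0724), and in CS against PF without PF 4 (0.062) or CS 1 (0.0504). No change was called on adding celastrol: the 95% interval of the log2 difference ran from −0.15 to 0.15 in CS against Veh and from −0.13 to 0.16 in PF+CS against PF. Sesn1 lies 273.4 kb from Foxo3 on chromosome 10, with 1 protein-coding gene, Armc2, between them.

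Bcl6 encodes a zinc-finger transcriptional repressor, known as a FoxO target in lymphoid and other cells (chr16:23965052-23988852, minus strand, protein-coding). Its libraries stood at 58.5, 57.3, 50.03 and 40.4 CPM in PF+CS, at 30.7, 33.0, 30.6 and 33.7 CPM in CS, at 60.1, 40.3, 42.6 and 62.3 CPM in PF, and at 34.7, 29.2, 36.0 and 27.05 CPM in Veh. The rationed and the freely fed libraries did not overlap. Among the called members Bcl6 had the largest change. It rose 1.62-fold in PF+CS against Veh (log2 0.70, SE 0.16, adjusted p = 0.0165, edgeR; 51.5 ± 8.34 CPM in PF+CS and 31.7 ± 4.29 CPM in Veh, n = 4 each) and 1.62-fold in PF against Veh (log2 0.69, SE 0.16, adjusted p = 0.0359). It was higher by log2 0.69 in PF+CS against CS (SE 0.16, adjusted p = 0.0407) and lower in CS against PF, at −0.68 (SE 0.16, adjusted p = 0.0394). The first of these calls was made in all 11 other settings, the others in 6, 6 and 5 of them, and single libraries decided some. In PF+CS against Veh the call ended without Veh 2 (adjusted p = 0.0565) or PF+CS 2 (0.0507), and in PF against Veh without Veh 1 (0.0715), Veh 2 (0.12), Veh 4 (0.082), PF 1 (0.0744) or PF 4 (0.15). In CS against PF it was kept only on leaving out PF 2 or PF 3, and in PF+CS against CS only on leaving out PF+CS 4 (highest adjusted p 0.135 and 0.136), while the log2 difference stayed between 0.55 and 0.79 in size. An exon of Bcl6 overlaps Gm37419 on the opposite strand.

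Fbxo32 encodes atrogin-1, the F-box subunit of a ubiquitin ligase best known as a FoxO target of wasting muscle (chr15:58175879-58214932, minus strand, protein-coding). Its changes had the opposite sign to those of Sesn1 and Bcl6. Its libraries stood at 18.7, 22.9, 24.7 and 24.2 CPM in PF+CS, at 27.7, 23.7, 26.7 and 26.7 CPM in CS, at 18.9, 19.7, 23.3 and 21.1 CPM in PF, and at 26.1, 29.3, 26.8 and 25.9 CPM in Veh. Every rationed library lay below every Veh library. Fbxo32 fell by log2 0.26 in PF+CS against Veh (SE 0.08, adjusted p = 0.0455, edgeR; 22.6 ± 2.70 CPM in PF+CS and 27.03 ± 1.57 CPM in Veh, n = 4 each) and by 0.38 in PF against Veh (SE 0.09, adjusted p = 0.0128). It was higher by 0.34 in CS against PF (SE 0.09, adjusted p = 0.0253). The call in PF+CS against Veh ended without PF+CS 1 (adjusted p = 0.222), PF+CS 2 (0.0887), Veh 1 (0.0597), Veh 2 (0.167), Veh 3 (0.0683) or Veh 4 (0.0588), and that in PF against Veh without Veh 2 (0.0695). In CS against PF it was kept on leaving out PF 3 or CS 2, and ended on leaving out any of the other 6 libraries (adjusted p 0.0611 to 0.0841). Without the 5 libraries low in meningeal markers, Fbxo32 was not called in PF against Veh (−0.30, adjusted p = 0.11) or in CS against PF (0.29, adjusted p = 0.16). Each of the 3 calls was made in 7 of the 11 other settings. An exon of Fbxo32 overlaps the antisense gene Gm15943.

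Markers of oligodendrocytes and microglia were also lower in every PF library than in any CS library. The summed level of 7 oligodendrocyte markers was 2969 to 3494 CPM in PF+CS, 3584 to 3925 CPM in CS, 2995 to 3339 CPM in PF and 3099 to 3775 CPM in Veh. That of 8 microglial markers was 228 to 272 CPM in PF+CS, 259 to 267 CPM in CS, 233 to 255.5 CPM in PF and 261 to 275 CPM in Veh. Their part in the level of Fbxo32 was not tested. Markers of skeletal muscle, where Fbxo32 is abundant, were low, with a sum over 6 genes of 3.92 to 7.80 CPM in any library and Ckm, the muscle creatine kinase, at 0 in every CS, PF and Veh library.

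Ccng2 encodes cyclin G2, which is linked to growth arrest and is a known FoxO target (chr5:93267257-93276231, plus strand, protein-coding). It was a low gene here, at 19.3 to 21.003 CPM in PF+CS, 18.6 to 20.7 CPM in CS, 16.4 to 21.3 CPM in PF and 15.1 to 19.1 CPM in Veh. The PF+CS libraries lay above the Veh libraries, by a margin smaller than the spread within Veh. No change was called: the log2 differences were 0.23 in PF+CS against Veh (SE 0.09, adjusted p = 0.0964, edgeR; without Veh 3, 0.0499), 0.19 in CS against Veh (SE 0.09, adjusted p = 0.343) and 0.20 in PF against Veh (SE 0.09, adjusted p = 0.233).

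Promoters are shown here for Bcl6, the member with the largest change, and for the 3 members whose window held one of the short elements at which FoxO factors act. Each window runs from 250 bases before to 50 bases after a start site (RefSeq, GRCm38.p6), is printed 5′ to 3′ on the strand of the gene, and carries in capitals any match to the FoxO element GTAAACA or to the insulin response sequence CAAAACA, on either strand.
Bcl6, chr16:23988803-23989102, minus strand: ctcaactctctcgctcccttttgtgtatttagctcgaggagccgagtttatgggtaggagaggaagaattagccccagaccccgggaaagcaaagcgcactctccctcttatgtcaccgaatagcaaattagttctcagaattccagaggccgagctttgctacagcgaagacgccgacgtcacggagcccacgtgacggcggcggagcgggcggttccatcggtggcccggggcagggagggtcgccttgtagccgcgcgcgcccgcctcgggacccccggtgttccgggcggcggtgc
Sesn1, chr10:41810324-41810623, plus strand: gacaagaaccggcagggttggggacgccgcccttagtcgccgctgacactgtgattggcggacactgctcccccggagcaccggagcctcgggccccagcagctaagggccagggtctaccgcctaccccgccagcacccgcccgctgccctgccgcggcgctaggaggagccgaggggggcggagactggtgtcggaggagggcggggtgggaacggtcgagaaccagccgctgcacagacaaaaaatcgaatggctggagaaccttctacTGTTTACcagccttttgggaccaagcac
Irs2, chr8:11008880-11009179, minus strand: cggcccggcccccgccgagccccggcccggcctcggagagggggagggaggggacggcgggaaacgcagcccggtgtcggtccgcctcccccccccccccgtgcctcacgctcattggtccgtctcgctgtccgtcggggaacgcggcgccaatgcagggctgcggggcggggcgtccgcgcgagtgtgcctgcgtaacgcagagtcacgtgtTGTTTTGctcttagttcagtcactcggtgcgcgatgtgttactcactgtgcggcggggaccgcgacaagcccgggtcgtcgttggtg
Ccng2, chr5:93267323-93267622, plus strand: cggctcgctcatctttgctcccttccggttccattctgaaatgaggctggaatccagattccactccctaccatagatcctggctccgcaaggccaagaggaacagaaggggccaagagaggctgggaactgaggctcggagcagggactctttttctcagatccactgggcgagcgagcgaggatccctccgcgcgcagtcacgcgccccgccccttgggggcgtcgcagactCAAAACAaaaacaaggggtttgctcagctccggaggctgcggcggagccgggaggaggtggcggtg
The Bcl6 window printed held neither motif, and nor did its other window (chr16:23981234-23981533). The Sesn1 window printed held GTAAACA on the opposite strand, read here as TGTTTAC, at chr10:41810596-41810602 in the transcribed part. The other Sesn1 window (chr10:41887189-41887488) held neither motif. Irs2 held CAAAACA on the opposite strand (chr8:11008960-11008966), and Ccng2 held it on its own strand (chr5:93267557-93267563). The sequence after the start site of the Irs2 window was not found in an annotated transcript of Irs2. In all, 8 of the 10 members had 11 windows in the table, of which 1 held GTAAACA and 2 held CAAAACA. Of all 32851 windows, 3.65% held the first and 6.28% the second. Insr and Fbxo32 were not matched. The motifs share no overlapping match in these windows, and a match is a description of the sequence only.

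**Figure D3:**
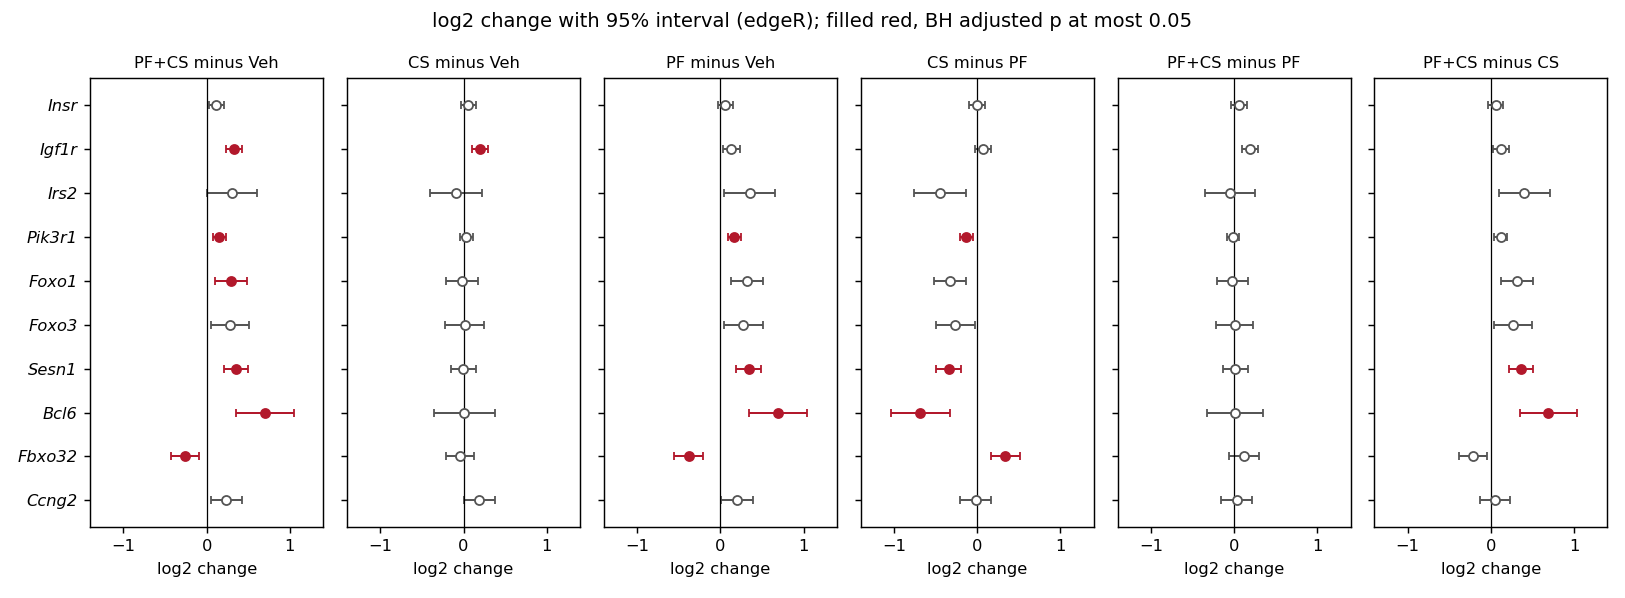
Log2 change of each member with its 95% interval in the 6 differences between groups (edgeR); filled red points have a BH adjusted p of at most 0.05. The intervals of PF+CS minus PF all include 0 except that of Igf1r, whose change is 0.19 and not called, and in CS minus Veh Igf1r is the one member called.

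Set side by side, the comparisons asked what celastrol and the ration do together, what each does alone, and what one adds to the other. Against Veh, PF+CS had 5 members that rose and 1 that fell, where 10.3% of all genes were called (5.85% higher and 4.47% lower). The median log2 change was 0.29 over the members and −0.003 over all genes. Igf1r, Sesn1, Bcl6, Pik3r1 and Foxo1 rose, and Fbxo32 fell. Groups did not overlap for 6 of the 10 members, against 13.7% of all genes. Without the 5 libraries low in meningeal markers 9 members were called (14.8% of all genes tested), among them Insr (0.17, adjusted p = 0.0106, edgeR), Foxo3 (0.37, adjusted p = 0.0294) and Ccng2 (0.29, adjusted p = 0.0487), and without PF+CS 4 alone 8 were. The fit without PF+CS 4 called 2007 of all genes, against 1524 with every library. PF+CS 4 had the lowest level of its group for 7 of the 10 members. The authors' deposited table for this pair called 5 members, with Fbxo32 at an adjusted p of 0.154. The share of all genes called in the authors' tables was not counted, here or below.

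In PF against Veh, 3 members rose (Sesn1, Bcl6 and Pik3r1) and Fbxo32 fell, where 3.63% of all genes were called, 2.36% higher and 1.28% lower. The median log2 change was 0.24 over the members and 0.000 over all genes, and 6 members did not overlap between groups, against 8.26% of all genes. Without Veh 2, 0 members were called by edgeR, without PF 4 there were 2, and without Veh 3, whose removal added Foxo1 (adjusted p = 0.0343), there were 5. Calls over all genes moved as well, from 537 with every library to 111, 120 and 800 in these fits. The authors' deposited table made from the PF and Veh columns called 6 members, Irs2 and Foxo1 beside Sesn1, Bcl6, Pik3r1 and Fbxo32. The comparisons against Veh share the same 4 Veh libraries.

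With celastrol alone, CS against Veh, Igf1r was the 1 member called, where 0.893% of all genes were called (0.305% higher and 0.589% lower). The median log2 change was 0.01 over the members and −0.001 over all genes, and 1 member did not overlap, against 8.94% of all genes. For members not called here the 95% intervals bound what could have been missed: −0.36 to 0.38 for Bcl6, −0.21 to 0.12 for Fbxo32, −0.04 to 0.11 for Pik3r1, −0.21 to 0.18 for Foxo1 and −0.41 to 0.22 for Irs2, on the log2 scale. They were −0.03 to 0.15 for Insr, −0.22 to 0.24 for Foxo3 and −0.15 to 0.15 for Sesn1. That of Ccng2, 0.001 to 0.37, lay just above 0 (log2 0.19, adjusted p = 0.343, edgeR). The authors' deposited table made from the CS and Veh columns also called 1 member, Igf1r.

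In CS against PF, Sesn1, Bcl6 and Pik3r1 were lower and Fbxo32 was higher, where 3.8% of all genes were called, 2.23% lower and 1.56% higher. The median log2 change was −0.20 over the members and −0.009 over all genes, and 6 members did not overlap, against 10.7% of all genes. The authors' deposited table called 6 members in this comparison, Irs2 and Foxo1 beside these 4. Without PF 4 or without CS 1, 0 members were called by edgeR, without PF 1, CS 3 or CS 4 there was 1, and without CS 2 there were 2. Calls over all genes fell as well, from 561 with every library to 214 without PF 4 and 217 without CS 1. They were 245 without PF 1, 283 without CS 3, 190 without CS 4 and 449 without CS 2. Drug and food allowance both differ here and cannot be told apart.

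Adding celastrol under the ration, PF+CS against PF, gave 0 members called by edgeR, where 0.0948% of all genes were called (0.088% higher and 0.00677% lower) and 4.16% did not overlap between groups, against 0 members. At an unadjusted p under 0.05 there were 1 member, Igf1r, and 1160 genes. DESeq2 (0.354% of the 9046 genes it gave an adjusted p) and voom with limma (0.0948% of all genes) also called 0 members. Igf1r had an adjusted p of 0.0514 in DESeq2. The log2 change of Igf1r was 0.19 (SE 0.05, adjusted p = 0.152, edgeR), and it was called without PF+CS 4 (0.24, adjusted p = 0.0197). Adding the ration under celastrol, PF+CS against CS, gave Sesn1 and Bcl6 as higher, where 2.65% of all genes were called (1.79% higher and 0.866% lower). Here 2 members did not overlap, against 10.1% of all genes, and the median log2 change was 0.20 over the members and 0.004 over all genes. Without PF+CS 4, 5 members were called, with Igf1r (0.17, adjusted p = 0.024), Irs2 (0.49, adjusted p = 0.0349) and Foxo1 (0.38, adjusted p = 0.00233) added. That fit called 961 of all genes, against 392 with every library. The authors' deposited table made from the PF+CS and CS columns called 3 members, Foxo1 beside Sesn1 and Bcl6.

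The interaction asked whether the change with celastrol differed between rationed and freely fed mice, and was called for 0 members by edgeR, as for 0% of all genes. At an unadjusted p under 0.05 there were 0 members and 741 genes, and DESeq2 and voom with limma also called 0 members. The 95% interval of its log2 value ran from −0.15 to 0.13 for Igf1r, from −0.19 to 0.23 for Sesn1, from −0.16 to 0.06 for Pik3r1 and from −0.50 to 0.49 for Bcl6. For Fbxo32 (0.17) and Ccng2 (−0.15), whose values were larger than their SE, it ran from −0.08 to 0.41 and from −0.42 to 0.11. The interval was widest for Bcl6 and narrowest for Pik3r1.

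**Figure D4:**
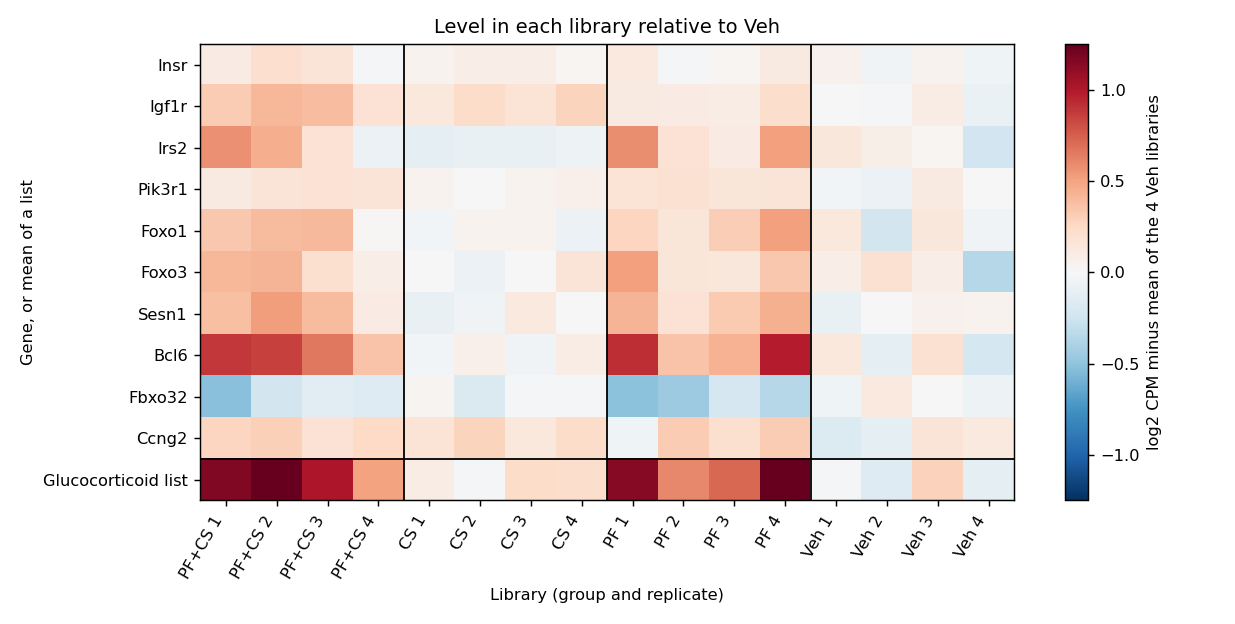
Level of each member (log2 CPM minus the mean of the 4 Veh libraries) in every library, with the mean of 18 glucocorticoid-responsive genes in the lowest row. Bcl6 is redder in all PF+CS and PF libraries and Fbxo32 bluer, with PF+CS 4 the lowest of its group for 7 members, and the glucocorticoid row is dark in PF+CS and PF and pale in CS and Veh.

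A list of 18 glucocorticoid-responsive genes, all of them tested, moved with the same groups. Its mean log2 CPM was 5.21 to 6.09 in PF+CS, 4.69 to 4.94 in CS, 5.31 to 5.99 in PF and 4.55 to 5.0 in Veh, with none of its genes at 0. In PF+CS the lowest value, 5.21, was that of replicate 4, against 5.72 to 6.09 in the other 3. Of its genes, 13 rose and 1 fell in PF+CS against Veh, where 5.85% of all genes were higher and 4.47% lower. In PF against Veh 8 rose and 0 fell (2.36% and 1.28% of all genes). In PF+CS against CS 7 rose and 1 fell (1.79% and 0.866%), and in CS against PF 0 rose and 6 fell (1.56% and 2.23%). In CS against Veh and in PF+CS against PF 0 were called, against 0.893% and 0.0948% of all genes. The part of this list in the levels of the members was not tested. The list shares Sgk1, Cdkn1a and Pdk4 with the pathway lists below.

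The rest of the pathway was read from 7 lists with 103 tested genes besides the members, also chosen with earlier results of these data known. In PF+CS against Veh, 14 of the 103 rose and 3 fell, with a median log2 change of 0.055, against 5.85% and 4.47% of all genes and a median of −0.003. By step, 1 of 8 ligands, receptors and IGF-binding proteins rose, and 0 of 11 adaptors and 0 of 8 other PI3K subunits were called. In that first list the binding protein gene Igfbp3 stood at 14.4 ± 2.46 CPM in PF+CS and 11.2 ± 0.910 CPM in Veh. Of 20 AKT and mTOR kinases with their partners and substrates 2 rose, as did 2 of 13 FoxO factors and partners. Among 19 brakes of the pathway 2 rose and 1 fell, and among 25 other FoxO targets 7 rose and 2 fell. The smallest adjusted p values besides the members were those of Trib1, a pseudokinase (log2 0.63, adjusted p = 0.00165, edgeR), Crebbp (0.19, adjusted p = 0.0043) and Ep300 (0.17, adjusted p = 0.0043), the acetyltransferases that act with FoxO factors, and Sgk1, a kinase that also phosphorylates FoxO factors (1.63, adjusted p = 0.00595). Cdkn1a, a cell-cycle inhibitor and FoxO and p53 target, showed the largest change of the lists, log2 2.64 (adjusted p = 0.0129; 34.9 ± 18.7 CPM in PF+CS and 5.53 ± 1.77 CPM in Veh), and is named because of its size.

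In PF against Veh, 7 of the 103 rose and 0 fell, where 2.36% of all genes were higher and 1.28% lower, with a median log2 change of 0.035 (0.000 over all genes). Tle1, a corepressor (0.35, adjusted p = 0.00171, edgeR), Trib1 (0.64, adjusted p = 0.00451), Pdk4, which holds back glucose oxidation in fasting (1.35, adjusted p = 0.0169), and Sgk1 (1.57, adjusted p = 0.0171) led them. In CS against Veh, 0 of the 103 were called by edgeR, where 0.893% of all genes were. In CS against PF the count of 4 of the 103 was near the share of all genes called, 3.8%. Those 4 were lower: Pdk4 (−1.38, adjusted p = 0.0156), Tle1 (−0.24, adjusted p = 0.0238), Cdkn1a (−2.83, adjusted p = 0.0258) and Trib1 (−0.43, adjusted p = 0.0444). In PF+CS against CS, 4 rose, where 1.79% of all genes were higher: Pdk4 (1.37, adjusted p = 0.0175), Cdkn1a (2.98, adjusted p = 0.0227), the autophagy gene Map1lc3b (0.22, adjusted p = 0.0245) and Ptpn1, a phosphatase that turns off the insulin receptor (0.30, adjusted p = 0.0326). In PF+CS against PF and in the interaction 0 of the 103 were called.

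**Figure D5:**
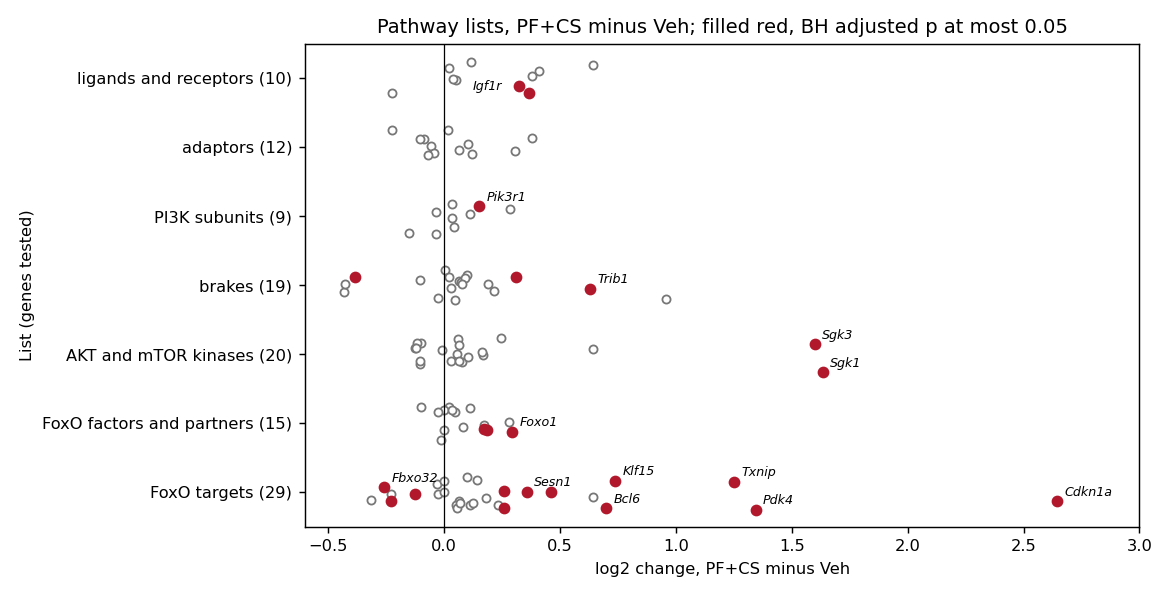
Log2 change in PF+CS against Veh of every tested gene of the 7 pathway lists, members included; each point is a gene, the number tested stands beside the list, the vertical position within a row is random, and filled red points have a BH adjusted p of at most 0.05 (edgeR). The called FoxO targets spread from Fbxo32 at −0.26 to Cdkn1a at 2.64, whereas no adaptor was called. The list of ligands and receptors also holds IGF-binding proteins, and that of AKT and mTOR kinases also holds their partners and substrates.

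The genes most like the 3 members with the smallest p in the test of 4 groups were found by Pearson correlation of log2 CPM over the 16 libraries, among 10662 genes. Igf1r was most like Rere, a nuclear corepressor (r = 0.945), Fryl (r = 0.913) and Crebbp (r = 0.889). Sesn1 was most like Glul, the glutamine synthetase of astrocytes (r = 0.945), Fkbp5, a glucocorticoid-induced co-chaperone (r = 0.944), and Mfsd2a, a lipid transporter of the blood-brain barrier (r = 0.943). Pik3r1 was most like Sgk1 (r = 0.946), Rsbn1 (r = 0.911) and Ahctf1, of the nuclear pore (r = 0.892). These genes share the libraries, their depth and the group differences with the member they follow, and the values are a description.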

How the data were processed

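The authors deposited raw counts per gene and FPKM for 16 hypothalamus RNA-seq libraries (column-purified RNA, SMARTER mRNA kit, per the labels' protocols) and 5 comparison tables holding shrunken log2 fold changes, p-values and adjusted p-values, and the mean normalized count as a signal. The build is GRCm38, per the submitters' processing notes; the sources used here name no aligner, counter or strand setting. Of the genes, 27 with names altered to dates were kept under those names. Counts of the 24047 genes were scaled by TMM, filtered (filterByExpr, minimum 10) and fitted with edgeR 4.0.16 in R 4.3.3 (robust quasi-likelihood, all 16 libraries, no covariate, BH over 14775 genes); limma 3.58.1 and DESeq2 1.42.0 served as alternatives, and the fit was checked on simulated data. CPM values are TMM-scaled. Members and lists were chosen with earlier results of these data known. Beside the members, text names the 4 pathway genes of smallest adjusted p per comparison and the 3 genes most like each of 3 members. No pair of libraries of a group agreed within sampling noise. Intervals are 95% intervals of the fit.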

Additional observations from a re-analysis of the deposited data

Results flagged for a closer look

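Igf1r in PF stood out for 1 library: PF 4 was measured at 183.575 CPM, against 169.9 CPM in the next library and 168.17 CPM in the lowest. Its gap to the next library was 0.889 of the range of the group, above Dixon's 95% critical value for 4 samples. It was the 1 such value among 40 combinations of a member and a group, where chance gives about 1 in 20.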

How the results depend on the processing

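No called log2 difference of a member changed sign under any setting tried. In 25 of 70 combinations of a member and a comparison the difference was smaller than its SE and no point value is given; 22 of these changed sign in at least 1 fit, and none of those fits made a call. The number of members called moved by over 1.5 times in the following cases, and the cause was not tested. On FPKM with limma (pseudocount 0.1, pseudocount 1, and 0.1 with no filter), CS against Veh gave 0, 0 and 0 calls, PF against Veh 1, 1 and 0, CS against PF 2, 1 and 1, PF+CS against CS 1, 1 and 0, and the test of 4 groups 2, 2 and 2; PF+CS against Veh gave 3 with no filter. The share of all genes called was lower there too. In the same order of settings it was 0.145%, 0.161% and 0.0206% for CS against Veh and 1.02%, 1.04% and 0.448% for PF against Veh. It was 1.28%, 1.14% and 0.546% for CS against PF and 0.688%, 0.543% and 0.232% for PF+CS against CS. For the test of 4 groups it was 4.95%, 4.94% and 1.86%, and for PF+CS against Veh 3.99% with no filter. With no filter on low counts, CS against PF gave 2 and PF+CS against CS 1, where 2.69% and 2.09% of all genes were called. With the 2 groups alone, PF against Veh gave 2 and PF+CS against CS 4, where 1.96% and 4.13% of all genes were called. Without the 5 libraries low in meningeal markers, a setting chosen after seeing the data, PF+CS against CS gave 4, where 6.74% of all genes were called. With the replicate number as a block, CS against Veh gave 0 (Igf1r, log2 0.20, adjusted p = 0.0618, edgeR), CS against PF 2 and PF+CS against CS 1. In these, 0.67%, 2.54% and 1.51% of all genes were called. The replicate numbers do not pair the libraries: same-numbered libraries correlated at −0.474 to 0.356 in their deviations from the group means, and 0 of 16 libraries correlated best with its own number. Leaving out 1 library gave 0 to 1 calls in CS against Veh, 0 to 5 in PF against Veh, 3 to 8 in PF+CS against Veh, 0 to 3 in CS against PF, 0 to 1 in PF+CS against PF, 1 to 5 in PF+CS against CS, 0 in the interaction and 5 to 7 in the test of 4 groups. In these fits the calls over all genes also varied. They were 10 to 242 in CS against Veh, 111 to 810 in PF against Veh and 710 to 2007 in PF+CS against Veh. CS against PF had 190 to 841, PF+CS against PF 1 to 24 and PF+CS against CS 113 to 961. The interaction had 0, and the test of 4 groups had 795 to 1966. DESeq2 and voom with limma stayed within 1.5 times of each count. Fbxo32 and Ccng2 have the fewest counts, but the SE of a difference was largest for Bcl6 and Irs2.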
